A study of Mus musculus with 21 samples.

Results

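The genes described here are those whose RNA was higher in repeatedly stimulated mouse CD8 T cells cultured with N-acetylcysteine (NAC) than in vehicle cultures. This held whether the vehicle cultures were stimulated once or repeatedly. A gene was chosen when its mean over the 3 NAC libraries was 3 or more RPKM (reads per length of gene and depth of library) and at least 4 times the mean of vehicle acute and 4 times the mean of vehicle chronic libraries. Tox, Gsta4, Pou2af1 and Iigp1 were left out by name. The rule gave 96 of the 13202 genes in the table. The NAC and vehicle values therefore chose the genes, and their differences are given as a description with no test. The polyclonal and OT-I libraries did not enter the rule, and tests of single genes among the 96 are confined to comparisons between them. The spread behind those tests was estimated over all 21 libraries, so NAC and vehicle libraries enter their SEs and p-values.

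The series holds 21 libraries in 7 groups of 3, from 3 experiments with CD8+ T cells. Polyclonal acute and polyclonal chronic cells came from C57BL/6 mice and were activated with antibodies to CD3 and CD28. Chronic cells then met plate-bound anti-CD3 again every 48 h, and acute cells were passed without it. OT-I acute and OT-I chronic cells came from mice transgenic for the OT-I T cell receptor, which recognises the peptide SIINFEKL, and were activated with that peptide. They were then kept with B16-F10 melanoma cells pretreated with IFN-γ, with the peptide added in chronic and withheld in acute cultures. Vehicle acute, vehicle chronic and NAC chronic cells were C57BL/6 cells handled like the polyclonal ones, with vehicle or with 10 mM NAC from 48 h onward. All groups received IL-2 and were harvested on day 8. NAC on acute cells was not analysed here, so an effect of NAC by itself and an effect on repeated stimulation cannot be told apart. Nothing in the labels says that libraries of a group came from separate mice or cultures, so p-values measure the spread between these libraries, which may be technical.

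T cells that meet antigen over and over lose function and self-renewal, a state called exhaustion, in which inhibitory receptors rise and memory genes such as Tcf7 fall. NAC enters cells, supplies cysteine for glutathione and lowers oxidative stress. A gene restored by NAC would return toward the acute level, whereas the genes below were chosen to lie well above both vehicle states with NAC.

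Depth was 5347355 to 25218890 reads in genes per library, and 14421378 to 15404084 in the NAC libraries. Polyclonal acute replicate 2, polyclonal chronic replicate 2 and OT-I acute replicate 3 stood apart, with a median of 1.36, 0.888 and 1.12 RPKM over 1512 low genes against 0.0451 to 0.478 in the other libraries. Defining T cell markers were present in every group, but Cd8a was 8.48 ± 0.165 RPKM in polyclonal chronic against 101 ± 0.556 in polyclonal acute libraries (SD, n = 3), and Cd4 was 312 ± 8.04 against 67.5 ± 2.99. Cd8b1 was 23.0 RPKM in polyclonal chronic and 267 in polyclonal acute libraries. The polyclonal chronic libraries thus go against their CD8 T cell label, and each polyclonal change below rests on them. NAC libraries had Cd8a at 138 ± 2.42 and Cd4 at 47.9 ± 1.12, against 13.9 ± 0.888 for Cd4 in vehicle acute and 2.39 ± 0.236 in vehicle chronic libraries. The summed level of 8 B cell markers was 220 to 241 RPKM in polyclonal chronic, 47.9 to 51.6 in OT-I chronic and 10.3 to 11.7 in NAC libraries. It was 3.48 to 17.4 RPKM in the other 4 groups. The sum of 12 melanocyte markers was 8211 to 8526 RPKM in OT-I acute and 4789 to 4916 in OT-I chronic libraries. Both OT-I groups were cultured with melanoma cells. That sum was 7.49 to 8.80 in NAC, 1.54 to 2.26 in vehicle chronic and 10.4 to 11.2 in vehicle acute libraries. In NAC libraries Tyrp1, Dct, Tyr, Slc45a2, Sox10 and Oca2 were at 0, while Pmel was 3.24, Trpm1 2.91 and Gpnmb 1.24 RPKM. In such mixed RNA, fewer cells of a type and less RNA per cell cannot be told apart. The part of these other cells in the levels below was not tested, also where marker values are given.

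The NAC means of the 96 genes ran from 3.10 to 416 RPKM with a median of 7.44. They were 3 to 5 RPKM in 34 genes, 5 to 10 in 27, 10 to 30 in 16 and higher in 19. The NAC libraries repeated closely, with a median coefficient of variation of 5.14% and a highest of 26.4%. Read numbers were 50 or more in all NAC libraries for 93 genes, and the lowest was 40 reads, for Vpreb3. The median ratio of the NAC mean to the higher vehicle mean was 6.51, and 23 genes reached a ratio of 10. All 3 NAC libraries lay above all 6 vehicle libraries for 96 of 96 genes, as the rule nearly forces, against 30.8% of the 12630 genes tested. Just inside the level threshold were Gm7694, Lima1 and Cntd1 at 3.10, 3.11 and 3.11 RPKM, and just outside it were Trpm1, Col20a1 and Aldh1l1 at 2.91, 2.88 and 2.85. Just inside the ratio threshold were Izumo1r, Mirt1 and Cox6b2 at 4.02, 4.05 and 4.09, and just outside it Il10ra, 5031434O11Rik and Vsig2 at 3.99, 3.97 and 3.95.

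**Figure D1:**
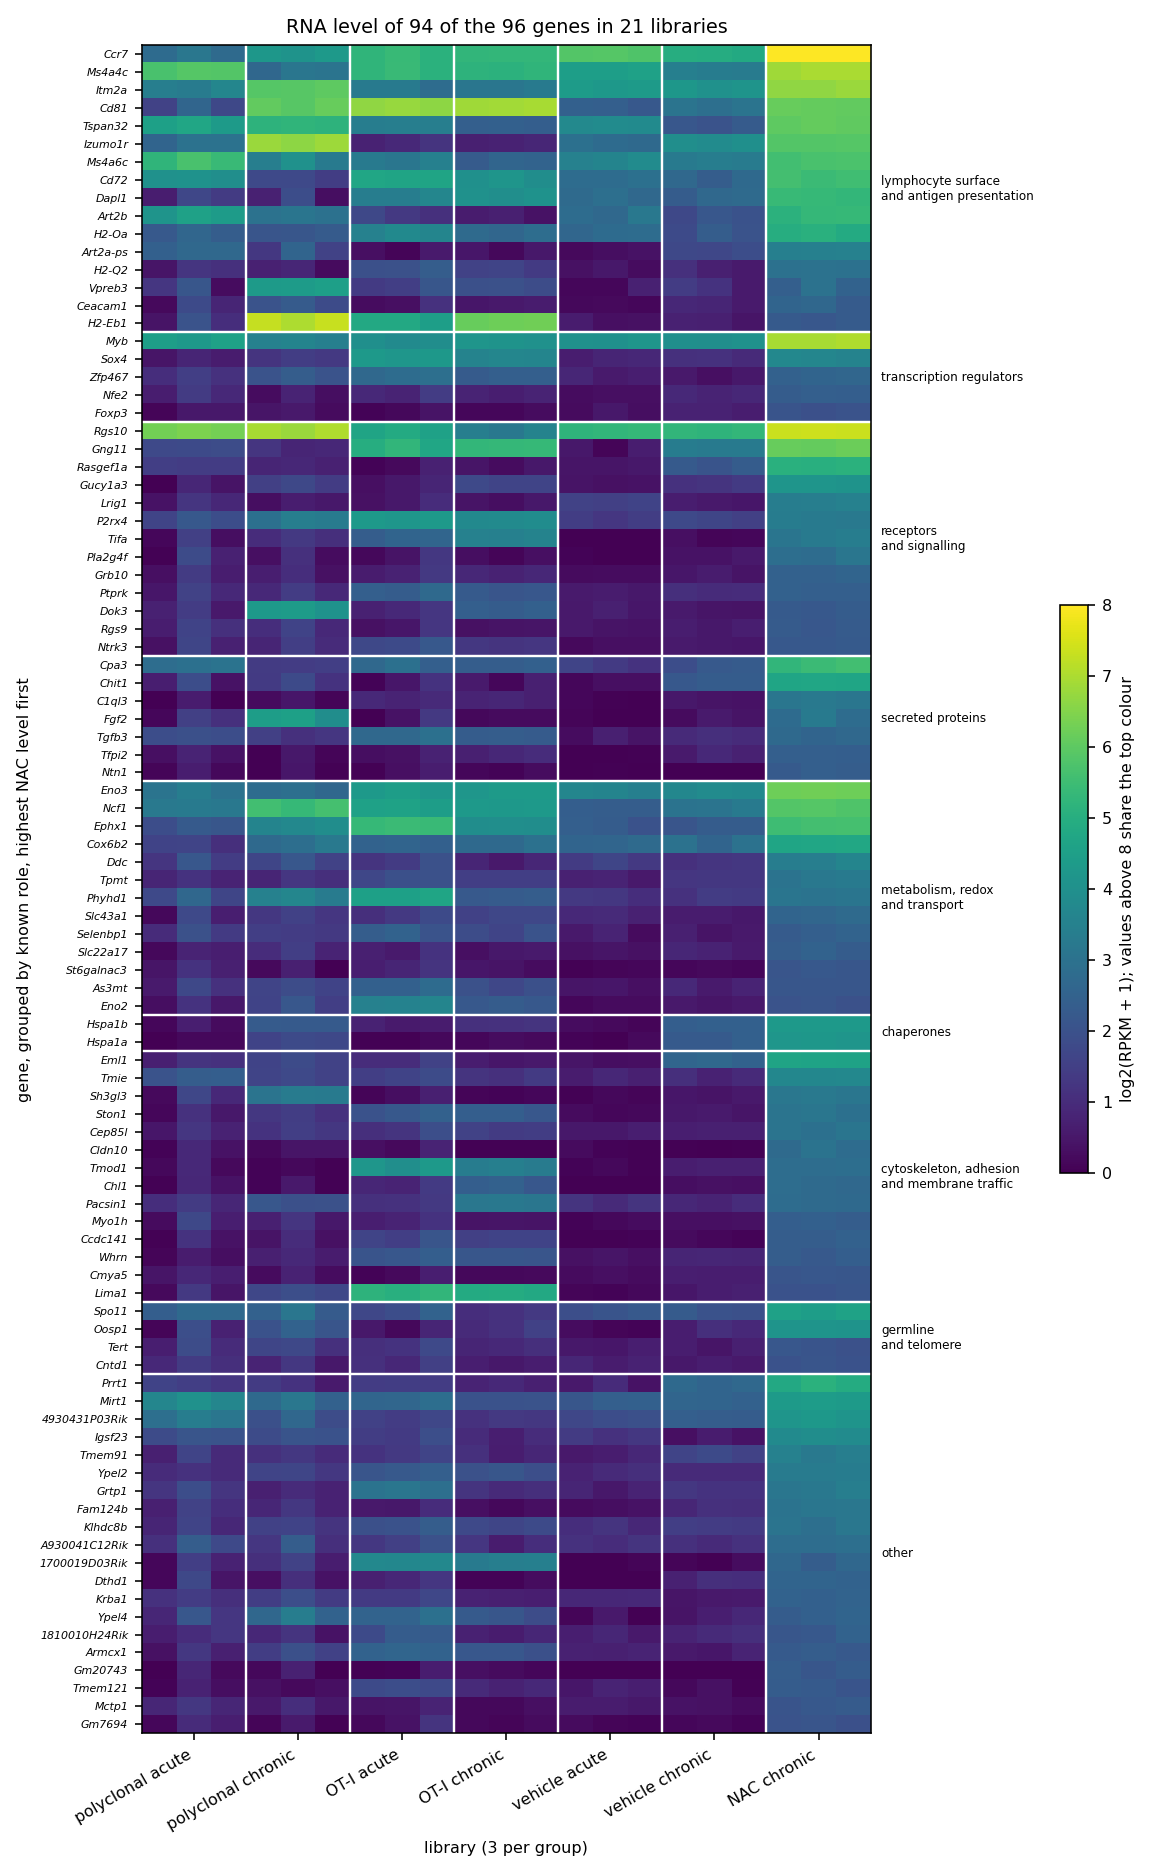
RNA level of 94 of the 96 genes as log2(RPKM + 1), with a row per gene grouped by known role and a column per library, 3 in each of the 7 groups. The NAC columns are brighter than the vehicle columns in every row, and rows such as H2-Eb1, Lima1 and Dok3 are brightest in polyclonal chronic or OT-I columns.

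Within the vehicle cultures the genes did not share a direction. Vehicle chronic libraries lay wholly above vehicle acute libraries for 53 genes, wholly below for 16, and overlapped for 27. Over all genes tested those shares were 31.9% above and 41.2% below, and since the same libraries served the rule nothing is read from the difference. Gng11 and Rasgef1a were among those already higher in vehicle chronic than in vehicle acute cells, and Ccr7, Ms4a4c and Tspan32 were among those lower.

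The name of high only with NAC did not hold across the other 2 experiments. The NAC group had the highest mean of all 7 groups for 74 of 96 genes, against 17.4% of genes tested, and all its libraries lay above all 18 others for 70, against 10.6%. Without the 3 libraries that stood apart these counts were 75 and 72. The rule had already set NAC above both vehicle groups, so nothing is read from the difference between the counts and the shares. For 22 genes another group had a higher mean than NAC, namely OT-I acute for 12, polyclonal chronic for 7 and OT-I chronic for 3. The 7 were H2-Eb1, Dok3, Vpreb3, Fgf2, Izumo1r, Ypel4 and Sh3gl3, and the 3 were Cd81, Pacsin1 and Tifa. The 12 were Lima1, Eno2, Phyhd1, Tmod1, 1700019D03Rik, P2rx4, Sox4, As3mt, Armcx1, Zfp467, Tgfb3 and Ptprk. The mean of the highest other group ran from 104% of the NAC mean for Sh3gl3 to 3952% for H2-Eb1. For 45 genes another group reached at least 50% of the NAC mean.

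NAC exceeded all 6 other groups by 4 times or more for 30 genes, or 35 without the 3 libraries that stood apart. Among them were Ccr7, Myb, Cpa3, Rasgef1a, Prrt1, Chit1, Eml1, Spo11, Hspa1a, Hspa1b, Gucy1a3, Oosp1, Igsf23, Lrig1, Tmem91, C1ql3, Fam124b, Cep85l, Pla2g4f, Cldn10, Dthd1, Grb10, Tfpi2, Myo1h, Ntn1, Cmya5, Foxp3, Gm20743 and Gm7694. The experiments were separate cultures, so a level set against another experiment also holds any difference between the experiments.

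**Figure D2:**
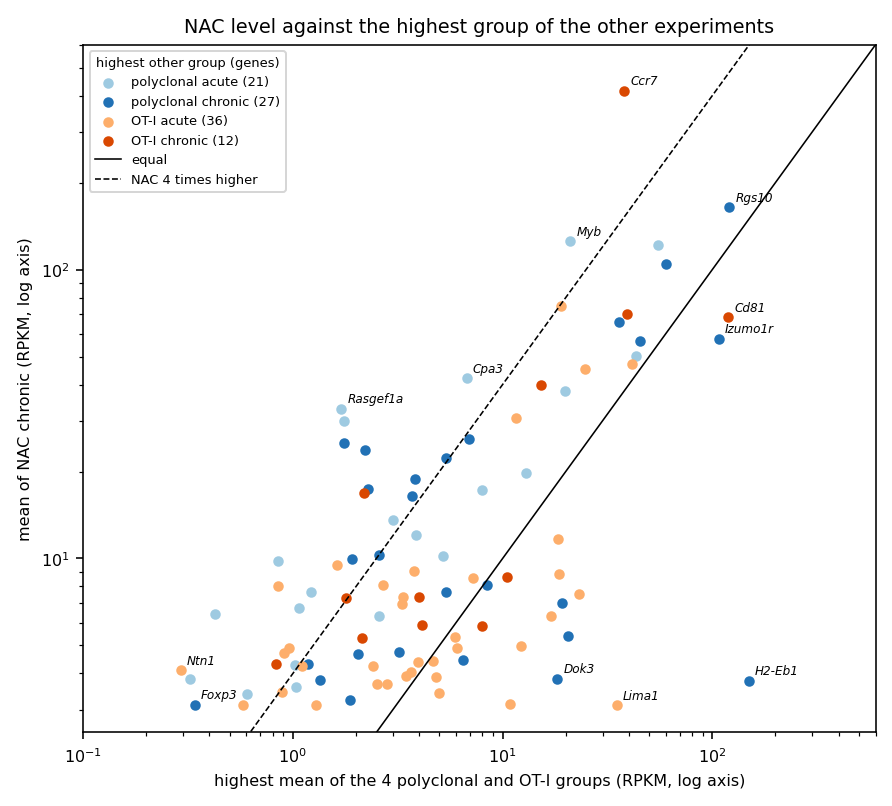
Mean RPKM of each of the 96 genes in NAC chronic libraries (vertical, log axis) against its highest mean among the 4 polyclonal and OT-I groups (horizontal, log axis), coloured by that group. Points below the solid line of equality are the 22 genes with a higher level in another experiment, and points above the dashed line exceed every such group 4 times or more.

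Whether repeated stimulation moved these genes was tested in the polyclonal and OT-I experiments, with limma on log2(RPKM + 1) and Benjamini-Hochberg adjustment over 12630 genes. The filter on low values kept all 96, although 84 had 1 RPKM or more in at least 3 of the 12 polyclonal and OT-I libraries. In polyclonal cells 38 genes rose with repeated stimulation and 19 fell, and among those 84 the counts were 38 and 17. Of all genes tested 64.1% were called, 28.6% higher and 35.5% lower. The median change was 0.089 on the log2 scale, against -0.083 over all genes. In OT-I cells 11 rose and 35 fell, and among the 84 the counts were 10 and 34. Of all genes tested 58.6% were called, 22.4% higher and 36.2% lower, or 27.4% and 27.9% with libraries rescaled to the same median. The median change was -0.32, against -0.12 over all genes. These counts and medians describe the genes and support nothing, since 12 of the 96 had little signal in these libraries and passed the filter only through NAC and vehicle libraries.

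The difference between the OT-I and the polyclonal effect was tested for each gene. It passed for 56 genes, 43 with a lower and 13 with a higher OT-I effect, and among the 84 the counts were 43 and 12. Of all genes tested 55.8% passed, 29.2% lower and 26.6% higher. The melanocyte marker sum was lower in OT-I chronic than in OT-I acute libraries, although Sox10 (150.1 against 130.2 RPKM) and Gpnmb (736 against 712) were not. The B cell marker sum was higher in chronic libraries of both experiments, and polyclonal chronic libraries had the low Cd8a and Cd8b1 and high Cd4 given above. The part of these in the changes was not tested. Rising in both experiments were 6 genes, falling in both were 10, and 13 rose in polyclonal but fell in OT-I cells. Gng11 and Myb fell in polyclonal and rose in OT-I cells, and 24 genes passed the test in neither. No share over all genes is given for these joint counts, so nothing is read from them.

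**Figure D3:**
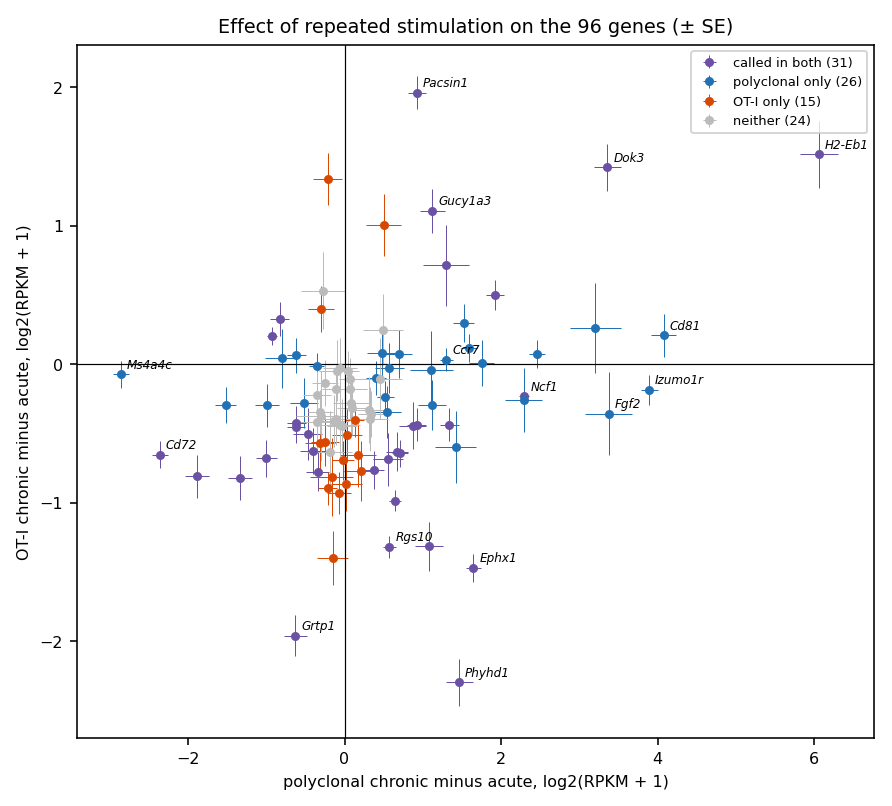
Chronic minus acute difference of each of the 96 genes in log2(RPKM + 1), polyclonal on the horizontal and OT-I on the vertical axis, with bars of 1 SE, coloured by the test each gene passed. H2-Eb1 has the highest polyclonal change and Ms4a4c the lowest, while Pacsin1 and Phyhd1 mark the ends of the OT-I axis.

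Of 16 genes grouped under lymphocyte surface and antigen presentation, 12 had their highest mean with NAC. In polyclonal cells 8 of the 16 rose and 5 fell, and in OT-I cells 1 rose and 6 fell. Of all genes tested 28.6% rose and 35.5% fell in polyclonal cells, and 22.4% and 36.2% in OT-I cells. Roles were assigned after values were seen, so nothing is read from counts by role, here or below. Ccr7, the receptor that leads naive and central memory T cells to lymph nodes, had the highest NAC level of the 96 genes. Ccr7 measured 413, 417 and 419 RPKM with NAC, 57.1, 58.3 and 55.1 in vehicle acute and 30.7, 29.7 and 28.3 in vehicle chronic libraries. It had 5.89, 8.05 and 5.79 RPKM in polyclonal acute, 17.9, 16.1 and 18.5 in polyclonal chronic, 36.5, 41.1 and 33.8 in OT-I acute and 37.3, 38.2 and 38.2 in OT-I chronic libraries. The NAC libraries stood far above all others and the vehicle chronic libraries lay below the vehicle acute ones. Ccr7 rose in polyclonal cells by 1.30 (SE 0.084, adjusted p = 2.86e-11), while its OT-I change of 0.034 (SE 0.084, adjusted p = 0.744) did not pass.

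Itm2a encodes a membrane protein known from T cell activation and thymic development. Itm2a measured 102, 101 and 111 RPKM with NAC, 19.9, 18.3 and 19.6 in vehicle acute and 17.6, 15.4 and 16.6 in vehicle chronic libraries. It had 9.66, 9.05 and 11.9 RPKM in polyclonal acute, 58.2, 59.6 and 63.4 in polyclonal chronic, 8.53, 8.80 and 6.16 in OT-I acute and 7.91, 7.78 and 8.93 in OT-I chronic libraries. Polyclonal chronic was the only group above vehicle acute apart from NAC. Itm2a rose in polyclonal cells by 2.46 (SE 0.10, adjusted p = 1.41e-14) and the OT-I change was 0.072 (SE 0.10, adjusted p = 0.555).

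Ms4a4c and Ms4a6c belong to a family of tetraspanning membrane proteins of blood cells, and their reads may be split between similar family members. Ms4a4c measured 114, 126 and 126 RPKM with NAC, 21.6, 21.4 and 22.9 in vehicle acute and 9.90, 9.36 and 8.95 in vehicle chronic libraries. It had 50.6, 58.4 and 56.7 RPKM in polyclonal acute, 5.33, 7.73 and 7.43 in polyclonal chronic, 36.9, 42.2 and 33.2 in OT-I acute and 34.9, 34.5 and 36.8 in OT-I chronic libraries. Ms4a4c was lower in chronic than in acute libraries of both C57BL/6 experiments. Its polyclonal change was -2.86 (SE 0.10, adjusted p = 7.66e-16), its OT-I change -0.072 (SE 0.10, adjusted p = 0.540), and their difference 2.78 (SE 0.14, adjusted p = 8.72e-13). Ms4a6c measured 47.0, 51.5 and 52.2 RPKM with NAC, 10.5, 11.3 and 13.6 in vehicle acute and 8.83, 9.42 and 9.11 in vehicle chronic libraries. It had 36.4, 51.5 and 42.1 RPKM in polyclonal acute, 9.77, 15.4 and 8.53 in polyclonal chronic, 8.62, 7.79 and 10.3 in OT-I acute and 3.95, 5.06 and 4.90 in OT-I chronic libraries. NAC libraries of Ms4a6c overlapped the polyclonal acute libraries, and the vehicle libraries overlapped the polyclonal chronic ones. Ms4a6c fell in polyclonal cells (-1.88, SE 0.15, adjusted p = 1.27e-09) and in OT-I cells (-0.81, SE 0.15, adjusted p = 1.61e-04).

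Cd81 and Tspan32 encode tetraspanins, which organise other membrane proteins, and are neighbours in the mouse genome. Cd81 measured 68.9, 68.7 and 67.2 RPKM with NAC, 4.42, 4.30 and 3.60 in vehicle acute and 7.48, 6.61 and 7.39 in vehicle chronic libraries. It had 2.01, 5.05 and 2.30 RPKM in polyclonal acute, 66.8, 59.2 and 70.2 in polyclonal chronic, 102, 109 and 98.0 in OT-I acute and 116, 118 and 123 in OT-I chronic libraries. Polyclonal chronic libraries of Cd81 overlapped the NAC libraries, and both OT-I groups were higher. It rose in polyclonal cells by 4.08 (SE 0.16, adjusted p = 6.81e-15) and its OT-I change of 0.21 (SE 0.16, adjusted p = 0.269) did not pass. That OT-I change did pass in a fit of only the compared groups (adjusted p = 0.0185) and in voom on recovered reads (adjusted p = 0.00130). It also passed without the 3 libraries with raised low genes (adjusted p = 0.0294). Tspan32 measured 64.0, 68.0 and 65.6 RPKM with NAC, 12.6, 13.4 and 13.3 in vehicle acute and 3.54, 3.09 and 3.96 in vehicle chronic libraries. It had 22.6, 25.6 and 19.6 RPKM in polyclonal acute, 35.2, 36.9 and 35.1 in polyclonal chronic, 9.41, 9.73 and 9.64 in OT-I acute and 4.32, 4.50 and 4.24 in OT-I chronic libraries. Its NAC libraries lay above all others, and vehicle chronic and OT-I chronic libraries were the lowest. Tspan32 rose in polyclonal cells (0.65, SE 0.074, adjusted p = 1.81e-07) and fell in OT-I cells (-0.99, SE 0.074, adjusted p = 7.94e-10).

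Izumo1r, also called folate receptor 4, is a surface protein of regulatory and anergic CD4 T cells. Izumo1r measured 57.2, 57.1 and 58.1 RPKM with NAC, 6.74, 5.91 and 5.59 in vehicle acute and 14.5, 13.4 and 15 in vehicle chronic libraries. It had 4.96, 7.01 and 7.03 RPKM in polyclonal acute, 109.6, 99.5 and 112 in polyclonal chronic, 0.697, 0.908 and 1.28 in OT-I acute and 0.633, 0.689 and 0.827 in OT-I chronic libraries. Polyclonal chronic libraries stood above the NAC libraries, and OT-I libraries were the lowest. Its polyclonal change was 3.89 (SE 0.11, adjusted p = 3.22e-17) and the OT-I minus polyclonal difference -4.08 (SE 0.15, adjusted p = 1.27e-14). The summed level of 4 CD4 T cell markers was 382 to 407 RPKM in polyclonal chronic, 102 to 107 in NAC and 35.7 to 38.3 in vehicle chronic libraries. It was 112 to 117 in polyclonal acute and 58.9 to 64.4 in vehicle acute libraries, where Izumo1r was low, and its part was not tested.

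Cd72 is an inhibitory co-receptor best known on B cells. Cd72 measured 47.4, 43.1 and 45.4 RPKM with NAC, 6.05, 6.11 and 6.73 in vehicle acute and 5.55, 4.13 and 5.73 in vehicle chronic libraries. It had 15.4, 15.9 and 14.4 RPKM in polyclonal acute, 2.41, 2.41 and 1.71 in polyclonal chronic, 25.8, 24.4 and 24.3 in OT-I acute and 15.2, 17.1 and 14.1 in OT-I chronic libraries. NAC libraries were the highest and polyclonal chronic the lowest, the group in which B cell markers were highest. The part of B cells in the Cd72 levels was not tested. Cd72 fell in polyclonal (-2.36, SE 0.10, adjusted p = 2.07e-14) and in OT-I cells (-0.65, SE 0.10, adjusted p = 1.00e-05). Art2b encodes an ADP-ribosyltransferase on the T cell surface, and Art2a-ps is annotated as its pseudogene copy, so their reads may be split. Art2b measured 34.6, 39.5 and 39.9 RPKM with NAC, 6.15, 5.55 and 8.21 in vehicle acute and 2.31, 3.54 and 3.07 in vehicle chronic libraries. It had 16.5, 23.0 and 20.0 RPKM in polyclonal acute, 7.15, 7.58 and 6.83 in polyclonal chronic, 2.33, 1.5 and 1.14 in OT-I acute and 0.515, 0.638 and 0.30 in OT-I chronic libraries. Acute exceeded chronic libraries in all 3 experiments, and NAC exceeded all of them. Art2b fell in polyclonal (-1.34, SE 0.16, adjusted p = 2.55e-07) and in OT-I cells (-0.82, SE 0.16, adjusted p = 1.56e-04). Art2a-ps had a NAC mean of 10.2 RPKM, with 2.40 in vehicle chronic and 0.227 in vehicle acute libraries, the reverse order of Art2b in vehicle cells.

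H2-Eb1 encodes a chain of the MHC class II molecules that present peptides to CD4 T cells. H2-Eb1 measured 3.86, 3.53 and 3.93 RPKM with NAC, 0.534, 0.245 and 0.278 in vehicle acute and 0.676, 0.615 and 0.356 in vehicle chronic libraries. It had 0.327, 3.14 and 1.05 RPKM in polyclonal acute, 158, 129 and 160.0 in polyclonal chronic, 27.1, 27.2 and 21.2 in OT-I acute and 69.9, 74.6 and 75.8 in OT-I chronic libraries. Its NAC level was small beside that in polyclonal chronic and OT-I chronic libraries, where B cell markers were high too. H2-Eb1 rose in polyclonal cells by 6.06 (SE 0.24, adjusted p = 1.02e-14) and in OT-I cells by 1.52 (SE 0.24, adjusted p = 2.05e-05). H2-Oa, part of the class II relative that tunes peptide loading in B cells and thymus, differed from it. H2-Oa had 30.8 ± 2.07 RPKM (SD, n = 3) with NAC, 5.77 ± 0.497 in vehicle acute and 3.29 ± 0.844 in vehicle chronic libraries. Its polyclonal means were 4.33 in acute and 3.57 in chronic libraries, so it did not rise where H2-Eb1 did. Of the 8 other class II genes of a fixed list that were tested, 6 were higher with NAC than in vehicle chronic and 6 than in vehicle acute libraries, and both comparisons share the NAC libraries. Of all genes tested 38.5% were higher and 22.6% lower with NAC against vehicle chronic, and 36.3% and 29.9% against vehicle acute. With libraries rescaled to the same median those shares turned to 26.8% and 32.6%, and to 28.6% and 38%, while the class II counts were again 6 and 6. Of the 8 B cell markers 2 were higher with NAC than in each vehicle group. They were Cd79b, at 8.57 RPKM with NAC, 2.73 in vehicle chronic and 4.96 in vehicle acute libraries, and Cd79a, at 1.88, 0.844 and 0.416. Ms4a1, Pax5 and Blnk had NAC means of 0.0332, 0.0562 and 0.0110 RPKM. The sum of the 6 myeloid markers in the table was 52.3 to 55.8 RPKM with NAC, 24.7 to 27.9 in vehicle chronic and 10.9 to 14.9 in vehicle acute libraries, and 3 of the 6 were higher and 1, Cd14, lower with NAC than in vehicle chronic libraries, and 4 were higher than in vehicle acute libraries. Itgax was 26.4 RPKM with NAC, 7.52 in vehicle chronic and 2.53 in vehicle acute libraries, Cd68 22.5, 16.0 and 9.91, and Itgam 4.93, 1.79 and 0.653, while Adgre1 and Mpeg1 were 0.0211 and 0.0514 with NAC. The part of B and myeloid cells in the class II levels was not tested.

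Vpreb3, a protein of early B cell receptor assembly, was, like H2-Eb1, highest in polyclonal chronic libraries. Vpreb3 measured 4.41, 7.03 and 4.74 RPKM with NAC, 0.0987, 0.113 and 0.675 in vehicle acute and 1.67, 1.23 and 0.493 in vehicle chronic libraries. It had 1.43, 3.42 and 0.194 RPKM in polyclonal acute, 19.7, 20.0 and 21.9 in polyclonal chronic, 1.58, 1.82 and 3.42 in OT-I acute and 2.90, 2.96 and 2.60 in OT-I chronic libraries. Its polyclonal chronic libraries were far above the rest, and its NAC libraries lay above the vehicle ones at a low level. Vpreb3 rose in polyclonal cells by 3.20 (SE 0.33, adjusted p = 3.18e-08). The remaining genes counted in this broad group, not all of them surface proteins, were Dapl1, Ceacam1 and H2-Q2. Their NAC means were 39.9, 4.74 and 6.96 RPKM. Dapl1 had vehicle means of 5.97 in acute and 5.13 in chronic cells and passed the test in neither other experiment. Ceacam1, an adhesion molecule and inhibitory receptor, rose in polyclonal cells by 1.11 (SE 0.28, adjusted p = 0.00163). H2-Q2 is a class I gene with close copies, so its reads are uncertain.

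**Figure D4:**
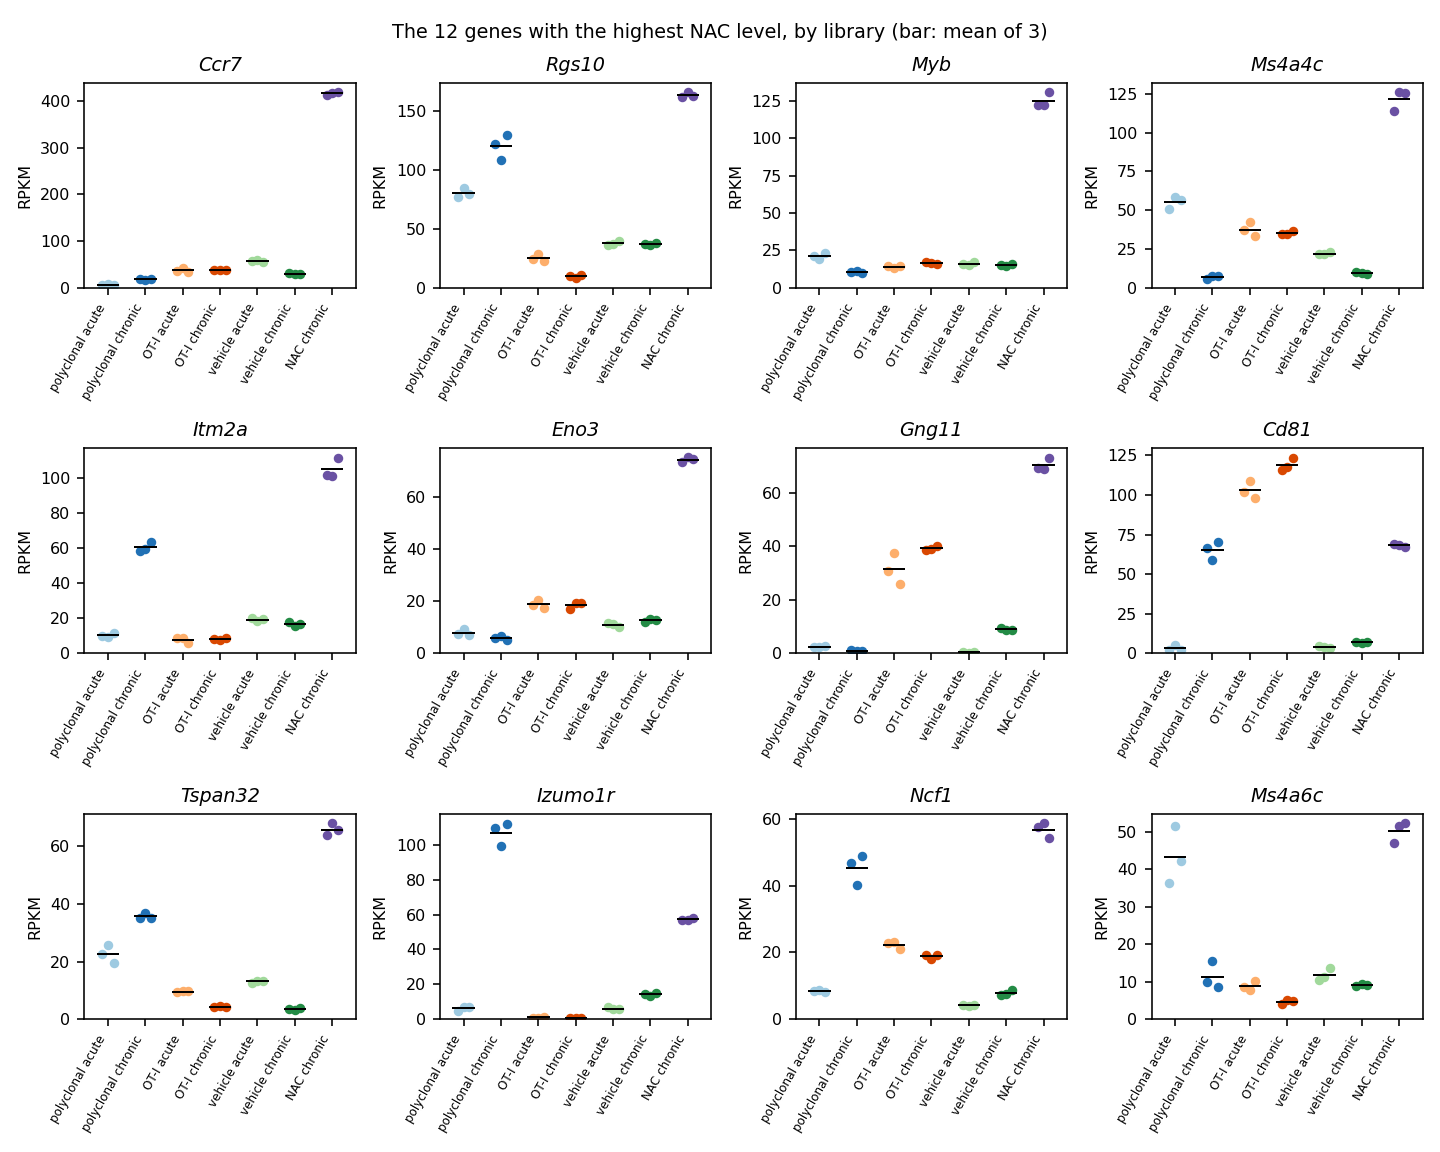
RPKM of the 12 genes with the highest NAC level, in every library (points) with the mean of 3 (bars), by group on the horizontal axis. NAC points stand alone above all groups for Ccr7, Myb, Eno3 and Tspan32, while Cd81 and Izumo1r have higher points in OT-I and in polyclonal chronic libraries.

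Among 6 transcription regulators 4 were highest with NAC. Myb, a factor of blood progenitors that also maintains stem-like memory CD8 T cells, had the highest level of them. Myb measured 122, 122 and 131 RPKM with NAC, 15.5, 15.1 and 17.2 in vehicle acute and 14.9, 14.4 and 15.6 in vehicle chronic libraries. It had 21.2, 19.0 and 22.8 RPKM in polyclonal acute, 10.4, 11.3 and 10.00 in polyclonal chronic, 14.8, 13.2 and 14.2 in OT-I acute and 17.0, 16.3 and 15.6 in OT-I chronic libraries. The 6 other groups lay within a narrow band and the NAC libraries stood far above it. Myb fell in polyclonal cells (-0.93, SE 0.066, adjusted p = 1.20e-10) and rose slightly in OT-I cells (0.20, SE 0.066, adjusted p = 0.0124). That OT-I call was lost when OT-I acute replicate 2 (adjusted p = 0.0615) or OT-I chronic replicate 1 (adjusted p = 0.0562) was left out.

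The Myb promoter is shown because Myb was the leading regulator among these genes. The 250 bases before the RefSeq start in GRCm38.p6 are chr10:21160985-21161234, minus strand, and capitals mark matches to the metal response element TGCGCNC on either strand. There were 3 matches, of which 2 overlap.
Myb: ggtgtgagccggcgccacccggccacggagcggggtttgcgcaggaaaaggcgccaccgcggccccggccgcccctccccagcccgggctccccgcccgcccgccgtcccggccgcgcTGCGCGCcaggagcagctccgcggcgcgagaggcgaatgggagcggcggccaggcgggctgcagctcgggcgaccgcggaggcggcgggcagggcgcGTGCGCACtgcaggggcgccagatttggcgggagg
That motif was found in 16.3% of the 86 members' promoters that matched the RefSeq table and in 12.6% of all 27025 promoters.

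Foxp3, the defining factor of regulatory T cells, was low but repeatable. Foxp3 measured 3.26, 2.91 and 3.17 RPKM with NAC, 0.166, 0.433 and 0.237 in vehicle acute and 0.718, 0.697 and 0.574 in vehicle chronic libraries. Its means were at most 0.341 in the 4 polyclonal and OT-I groups. The summed level of 5 regulatory T cell markers, Foxp3 among them, was 553 to 557 RPKM with NAC, 737 to 761 in vehicle chronic and 287 to 315 in vehicle acute libraries. Of the other 4, 2 were higher and 2 lower with NAC than in vehicle chronic, or 1 and 2 with libraries rescaled to the same median, and 3 were higher and 1 lower than in vehicle acute libraries. Tnfrsf18 was 282 ± 4.24 RPKM with NAC, 230.0 ± 7.20 in vehicle chronic and 98.2 ± 8.62 in vehicle acute libraries, and Il2ra was 112 ± 1.34, 346 ± 6.22 and 154 ± 10.1. In the same order Ikzf4 was 9.55 ± 0.631, 4.15 ± 0.425 and 3.37 ± 0.227 RPKM, and Ctla4 148 ± 0.754, 170 ± 3.29 and 45.1 ± 3.53. The part of such cells in the Foxp3 level was not tested.

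Sox4, a factor of lymphocyte development, had 11.6 ± 0.631 RPKM (SD, n = 3) with NAC, 1.10 ± 0.152 in vehicle chronic and 18.3 ± 0.835 in OT-I acute libraries. It rose in polyclonal (0.71, SE 0.10, adjusted p = 2.60e-06) and fell in OT-I cells (-0.64, SE 0.10, adjusted p = 1.27e-05). The melanocyte marker sum was lower in OT-I chronic libraries too, and the part of melanoma cells in the Sox4 change was not tested. Nfe2, an erythroid and platelet factor, had 4.23 RPKM with NAC and 0.820 in vehicle chronic libraries. The zinc finger gene Zfp467 had 4.89 RPKM with NAC and 6.06 in OT-I acute libraries.

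Signalling was represented by 14 genes, 10 of them highest with NAC. Of the 14, 5 rose and 2 fell in polyclonal cells and 4 rose and 3 fell in OT-I cells. The shares over all genes were 28.6% and 35.5% in polyclonal and 22.4% and 36.2% in OT-I cells. Rgs10 and Rgs9 encode proteins that switch off G protein signals. Rgs10 measured 162, 167 and 163 RPKM with NAC, 36.1, 37.5 and 39.4 in vehicle acute and 37.2, 35.9 and 38.2 in vehicle chronic libraries. It had 77.0, 84.6 and 79.8 RPKM in polyclonal acute, 122, 109 and 130.0 in polyclonal chronic, 24.7, 28.8 and 22.8 in OT-I acute and 9.63, 8.29 and 10.9 in OT-I chronic libraries. Vehicle acute and chronic libraries of Rgs10 overlapped, and polyclonal libraries came nearest to NAC. Rgs10 rose in polyclonal (0.57, SE 0.083, adjusted p = 4.20e-06) and fell in OT-I cells (-1.32, SE 0.083, adjusted p = 5.03e-11). Gng11 encodes a gamma subunit of G proteins. Gng11 measured 69.3, 68.8 and 72.8 RPKM with NAC, 0.426, 0.0814 and 0.556 in vehicle acute and 9.30, 8.87 and 8.80 in vehicle chronic libraries. It had 2.43, 2.46 and 2.65 RPKM in polyclonal acute, 1.33, 0.773 and 0.869 in polyclonal chronic, 30.8, 37.4 and 25.8 in OT-I acute and 38.6, 39.1 and 39.9 in OT-I chronic libraries. It was near 0 in vehicle acute, intermediate in vehicle chronic and high in NAC and both OT-I groups. Gng11 fell in polyclonal cells (-0.83, SE 0.12, adjusted p = 5.74e-06), and its OT-I change of 0.33 (SE 0.12, adjusted p = 0.0270) was lost when any library of the comparison but OT-I acute replicate 2 was left out, with adjusted p up to 0.172 without OT-I acute replicate 3, and with a pseudocount of 0.1 (adjusted p = 0.346). In voom on recovered reads the polyclonal change did not pass either (adjusted p = 0.117).

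Rasgef1a encodes an exchange factor for small GTPases of the Ras family. Rasgef1a measured 33.0, 31.8 and 33.9 RPKM with NAC, 0.382, 0.355 and 0.445 in vehicle acute and 3.82, 3.25 and 3.98 in vehicle chronic libraries. It had 1.77, 1.66 and 1.68 RPKM in polyclonal acute, 0.768, 0.871 and 0.668 in polyclonal chronic, 0.0635, 0.160 and 0.654 in OT-I acute and 0.357, 0.207 and 0.427 in OT-I chronic libraries. Vehicle chronic libraries were above vehicle acute ones, and no polyclonal or OT-I library reached 2 RPKM. It fell in polyclonal cells by a small amount (-0.61, SE 0.13, adjusted p = 2.73e-04). Gucy1a3 encodes a subunit of soluble guanylate cyclase, the receptor for nitric oxide. Gucy1a3 measured 17.2, 17.0 and 16.4 RPKM with NAC, 0.332, 0.292 and 0.312 in vehicle acute and 1.23, 1.31 and 1.56 in vehicle chronic libraries. It had 0.0168, 0.804 and 0.351 RPKM in polyclonal acute, 1.87, 2.33 and 1.66 in polyclonal chronic, 0.249, 0.438 and 0.786 in OT-I acute and 2.37, 2.10 and 2.09 in OT-I chronic libraries. Chronic libraries were above acute ones in all 3 experiments, each time at a small part of the NAC level. Gucy1a3 rose in polyclonal (1.12, SE 0.16, adjusted p = 3.45e-06) and in OT-I cells (1.11, SE 0.16, adjusted p = 6.08e-06), and the OT-I minus polyclonal difference of -0.012 (SE 0.23, adjusted p = 0.971) did not pass.

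Tifa encodes an adaptor of innate NF-κB signalling. Tifa measured 7.61, 8.76 and 9.54 RPKM with NAC, 0, 0 and 0 in vehicle acute and 0.264, 0.0800 and 0.111 in vehicle chronic libraries. It had 0.110, 1.84 and 0.218 RPKM in polyclonal acute, 1.04, 1.51 and 1.11 in polyclonal chronic, 4.11, 5.04 and 5.14 in OT-I acute and 10.6, 10.1 and 10.9 in OT-I chronic libraries. It is listed at 0 in all vehicle acute libraries, and OT-I chronic libraries were above the NAC libraries. Tifa rose in OT-I cells by 1.01 (SE 0.22, adjusted p = 6.65e-04). Its polyclonal change of 0.50 (SE 0.22, adjusted p = 0.0565) did not pass, and was 0.93 with an adjusted p of 7.36e-07 without polyclonal acute replicate 2, a library with raised low genes. With the replicate number as a block its adjusted p was 0.0142, and with a pseudocount of 0.1 the polyclonal change passed (adjusted p = 0.0223) and the OT-I change did not (adjusted p = 0.0622).

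Dok3 encodes an adaptor that dampens B cell receptor signals. Dok3 measured 3.82, 3.63 and 4.03 RPKM with NAC, 0.461, 0.616 and 0.413 in vehicle acute and 0.487, 0.369 and 0.345 in vehicle chronic libraries. It had 0.656, 1.69 and 0.453 RPKM in polyclonal acute, 18.7, 20.1 and 15.9 in polyclonal chronic, 0.670, 0.912 and 1.43 in OT-I acute and 4.35, 4.05 and 4.53 in OT-I chronic libraries. Polyclonal chronic libraries stood above all others, as the B cell markers did, and the part of B cells was not tested. Dok3 rose in polyclonal (3.36, SE 0.17, adjusted p = 4.97e-13) and in OT-I cells (1.42, SE 0.17, adjusted p = 5.24e-07). P2rx4, an ATP-gated channel, had 8.87 RPKM with NAC and 18.5 in OT-I acute libraries, and rose in polyclonal but fell in OT-I cells. Lrig1, an inhibitor of growth factor receptors, had a NAC mean of 9.83 RPKM and was higher in vehicle acute (1.97) than in vehicle chronic cells (0.469). Lower NAC means were found for Pla2g4f (6.76), the adaptor Grb10 (4.70), the phosphatase Ptprk (4.41), Rgs9 (3.80) and the neurotrophin receptor Ntrk3 (3.67).

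Secreted proteins numbered 7, of which 5 were highest with NAC. Cpa3 encodes a carboxypeptidase stored in mast cell granules. Cpa3 measured 37.3, 42.6 and 46.4 RPKM with NAC, 2.09, 1.59 and 1.24 in vehicle acute and 2.68, 3.73 and 3.88 in vehicle chronic libraries. It had 6.23, 6.69 and 7.30 RPKM in polyclonal acute, 1.60, 1.69 and 1.82 in polyclonal chronic, 5.53, 6.69 and 4.30 in OT-I acute and 4.10, 4.18 and 4.46 in OT-I chronic libraries. NAC libraries stood above all others, of which the highest had 7.30 RPKM. Cpa3 fell in polyclonal cells (-1.52, SE 0.13, adjusted p = 3.10e-09), while its OT-I change of -0.29 (SE 0.13, adjusted p = 0.0628) did not pass, but did so without OT-I acute replicate 3 (adjusted p = 0.00837) and in voom on recovered reads (adjusted p = 0.0337). Of 6 mast cell and basophil markers 4 are in the table. Beside Cpa3, Kit had 29.1 ± 0.654 RPKM with NAC and 13.8 ± 0.101 in vehicle chronic libraries. Ms4a2 had 1.17 ± 0.0465 with NAC and 0.00703 ± 0.0122 in vehicle chronic libraries. Mcpt8 had 0.0275 ± 0.0477 with NAC against 10.5 ± 1.12 in vehicle chronic libraries. A part of such cells in the Cpa3 level was not tested.

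Fgf2 encodes a growth factor for many cell types. Fgf2 measured 5.92, 8.88 and 6.16 RPKM with NAC, 0.0855, 0 and 0 in vehicle acute and 0.180, 0.492 and 0.342 in vehicle chronic libraries. It had 0.112, 1.88 and 1.17 RPKM in polyclonal acute, 21, 22.5 and 14.1 in polyclonal chronic, 0, 0.301 and 1.54 in OT-I acute and 0.129, 0.171 and 0.188 in OT-I chronic libraries. Polyclonal chronic libraries were above NAC, and OT-I libraries were low. Fgf2 rose in polyclonal cells by 3.37 (SE 0.30, adjusted p = 4.19e-09). Chit1, a chitinase, had 25.2 ± 0.454 RPKM with NAC, 3.87 ± 0.243 in vehicle chronic and 0.202 ± 0.0912 in vehicle acute libraries, and passed the test in neither other experiment. Ntn1, the guidance cue netrin, measured 3.76, 4.37 and 4.16 RPKM with NAC and 0.0207, 0.0237 and 0.0101 and 0.0219, 0.0199 and 0.0103 in vehicle acute and chronic libraries. The highest mean of Ntn1 in another group was 0.293, so it was nearly absent elsewhere. C1ql3, Tgfb3 and Tfpi2, which encodes a protease inhibitor, had NAC means of 8.04, 5.35 and 4.33 RPKM.

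Metabolism, redox and transport held 13 genes, 10 of them highest with NAC. In OT-I cells 8 of the 13 fell, and in polyclonal cells 7 rose and 2 fell. Over all genes 36.2% fell in OT-I cells, and 28.6% rose and 35.5% fell in polyclonal cells. Eno3 is the muscle form of the glycolytic enzyme enolase. Eno3 measured 73.6, 75.4 and 74.7 RPKM with NAC, 11.8, 11.2 and 10.1 in vehicle acute and 12.2, 13.4 and 12.9 in vehicle chronic libraries. It had 7.40, 9.56 and 7.05 RPKM in polyclonal acute, 6.07, 6.61 and 5.31 in polyclonal chronic, 18.7, 20.7 and 17.3 in OT-I acute and 17.2, 19.5 and 19.5 in OT-I chronic libraries. The OT-I groups were next after NAC and overlapped each other. Eno3 fell slightly in polyclonal cells (-0.36, SE 0.092, adjusted p = 0.00190), a call that voom on recovered reads did not make (adjusted p = 0.0529). Eno2, the neuronal form, behaved otherwise. Eno2 measured 3.13, 3.35 and 2.95 RPKM with NAC, 0.106, 0.170 and 0.187 in vehicle acute and 0.448, 0.367 and 0.467 in vehicle chronic libraries. It had 0.223, 1.27 and 0.417 RPKM in polyclonal acute, 2.02, 3.47 and 1.77 in polyclonal chronic, 10.4, 10.6 and 11.6 in OT-I acute and 3.64, 4.05 and 3.61 in OT-I chronic libraries. OT-I acute libraries were the highest of all. Eno2 rose in polyclonal (1.08, SE 0.18, adjusted p = 1.90e-05) and fell in OT-I cells (-1.31, SE 0.18, adjusted p = 2.57e-06).

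Ephx1, the microsomal epoxide hydrolase, inactivates reactive epoxides. Ephx1 measured 45.2, 47.6 and 49.0 RPKM with NAC, 4.41, 3.99 and 3.07 in vehicle acute and 3.32, 4.07 and 4.06 in vehicle chronic libraries. It had 2.74, 3.76 and 3.42 RPKM in polyclonal acute, 11.1, 12.2 and 14.2 in polyclonal chronic, 40.3, 42.4 and 41.8 in OT-I acute and 14.3, 14.6 and 14.2 in OT-I chronic libraries. OT-I acute libraries came close to NAC and OT-I chronic libraries were lower. Ephx1 rose in polyclonal (1.65, SE 0.10, adjusted p = 1.20e-11) and fell in OT-I cells (-1.47, SE 0.10, adjusted p = 2.06e-10). Ncf1 encodes a subunit that activates the phagocyte NADPH oxidase, a source of superoxide. Ncf1 measured 57.4, 58.7 and 54.3 RPKM with NAC, 4.24, 4.08 and 4.19 in vehicle acute and 7.35, 7.45 and 8.61 in vehicle chronic libraries. It had 8.44, 8.63 and 8.13 RPKM in polyclonal acute, 46.9, 40.3 and 48.8 in polyclonal chronic, 22.7, 23.2 and 20.9 in OT-I acute and 19.2, 18.1 and 19.1 in OT-I chronic libraries. Polyclonal chronic libraries were nearest to NAC. Ncf1 rose in polyclonal cells by 2.30 (SE 0.066, adjusted p = 6.27e-17), and its small OT-I change of -0.23 (SE 0.066, adjusted p = 0.00544) was lost when libraries were rescaled to the same median (adjusted p = 0.126). Phyhd1, a dioxygenase relative, was highest in OT-I acute cells. Phyhd1 measured 7.66, 7.27 and 7.64 RPKM with NAC, 1.49, 1.44 and 1.07 in vehicle acute and 1.19, 1.65 and 1.59 in vehicle chronic libraries. It had 2.39, 5.42 and 2.21 RPKM in polyclonal acute, 10.6, 11.7 and 8.98 in polyclonal chronic, 22.5, 22.5 and 24.8 in OT-I acute and 3.75, 3.94 and 4.08 in OT-I chronic libraries. Its NAC libraries lay below all OT-I acute and polyclonal chronic libraries. Phyhd1 rose in polyclonal (1.46, SE 0.17, adjusted p = 2.81e-07) and fell in OT-I cells (-2.30, SE 0.17, adjusted p = 7.92e-10).

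The remaining 8 were Cox6b2 at 26.0 RPKM with NAC, Ddc at 10.3, Tpmt at 8.11, Slc43a1 at 5.33, Selenbp1 at 4.39, Slc22a17 at 4.30, St6galnac3 at 3.46 and As3mt at 3.42. Cox6b2 is the testis form of a respiratory chain subunit, Ddc decarboxylates aromatic amino acids, Tpmt and As3mt are methyltransferases and Slc43a1 carries neutral amino acids. A fixed list of NRF2 targets and glutathione enzymes holds none of the 96 genes. Of its 39 tested genes, 9 were higher with NAC than in vehicle chronic libraries and 19 lower, where 38.5% and 22.6% of all genes were, or 2 and 20 with libraries rescaled to the same median. Against vehicle acute 7 were higher and 25 lower, where 36.3% and 29.9% of all genes were. Gpx8, a peroxidase of the endoplasmic reticulum, was 0.509 ± 0.224 RPKM with NAC and 26.8 ± 1.88 in vehicle chronic libraries (log2 change -4.21), and Mgst2, a glutathione transferase, was 63.0 ± 3.08 and 12.1 ± 3.08 (log2 change 2.32).

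Hspa1a and Hspa1b encode the inducible HSP70 chaperone, are near-identical neighbours on chromosome 17, and may share reads. Their promoters are shown because both copies followed nearly the same pattern. The 250 bases before the start are chr17:34972157-34972406 for Hspa1a and chr17:34959239-34959488 for Hspa1b, both minus strand in GRCm38.p6. Without gaps they are identical at 247 of 250 bases, and capitals mark the heat shock element match, GAANNTTC, which starts 104 bases before the start in both.
Hspa1a: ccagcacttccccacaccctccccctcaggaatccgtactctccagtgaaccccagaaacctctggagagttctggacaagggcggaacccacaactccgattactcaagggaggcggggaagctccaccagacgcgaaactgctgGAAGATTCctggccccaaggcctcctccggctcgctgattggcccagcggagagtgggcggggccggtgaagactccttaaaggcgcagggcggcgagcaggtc
Hspa1b: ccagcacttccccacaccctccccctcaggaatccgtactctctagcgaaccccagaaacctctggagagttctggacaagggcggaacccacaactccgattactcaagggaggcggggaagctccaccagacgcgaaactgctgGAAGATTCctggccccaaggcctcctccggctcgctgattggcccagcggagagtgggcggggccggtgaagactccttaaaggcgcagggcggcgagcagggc
That motif was searched after values were seen, and 9.30% of 86 member promoters and 6.78% of all promoters hold it. Hspa1a measured 17.6, 17.8 and 16.8 RPKM with NAC, 0.0637, 0 and 0.145 in vehicle acute and 3.79, 3.81 and 4.48 in vehicle chronic libraries. It had 0, 0.134 and 0.125 RPKM in polyclonal acute, 2.06, 2.45 and 2.34 in polyclonal chronic, 0.0296, 0.0373 and 0.136 in OT-I acute and 0.112, 0.213 and 0.156 in OT-I chronic libraries. For Hspa1b the NAC libraries held 18.8, 18.8 and 18.8 RPKM, the vehicle chronic libraries 4.22, 4.44 and 4.48 and the vehicle acute libraries 0.211, 0.145 and 0.0827. Both genes were below 1 RPKM in every acute library, higher in polyclonal chronic and vehicle chronic libraries, and highest with NAC. Hspa1a rose in polyclonal cells by 1.59 (SE 0.10, adjusted p = 2.19e-11), with an OT-I change of 0.12 (SE 0.10, adjusted p = 0.320), and Hspa1b rose in polyclonal (1.92, SE 0.11, adjusted p = 4.41e-12) and in OT-I cells (0.50, SE 0.11, adjusted p = 6.66e-04).

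Cytoskeleton, adhesion and membrane traffic genes numbered 14, and 10 were highest with NAC. Of the 14, 7 rose and 2 fell in polyclonal cells, and 2 rose and 3 fell in OT-I cells. The all-gene shares were 28.6% and 35.5% in polyclonal and 22.4% and 36.2% in OT-I cells. Pacsin1, which bends membranes in endocytosis, had the highest OT-I change of all 96 genes. Pacsin1 measured 6.10, 5.79 and 5.61 RPKM with NAC, 1.29, 0.954 and 1.31 in vehicle acute and 0.837, 0.722 and 1.02 in vehicle chronic libraries. It had 1.08, 1.61 and 0.818 RPKM in polyclonal acute, 3.46, 2.84 and 2.96 in polyclonal chronic, 1.15, 1.22 and 1.53 in OT-I acute and 7.96, 8.12 and 7.77 in OT-I chronic libraries. OT-I chronic libraries stood above NAC, and the vehicle libraries were low in both states. Pacsin1 rose in OT-I (1.96, SE 0.12, adjusted p = 2.86e-11) and in polyclonal cells (0.93, SE 0.12, adjusted p = 7.64e-07). Chl1 is a neural adhesion molecule. Chl1 measured 6.23, 5.85 and 5.56 RPKM with NAC, 0.00766, 0.0176 and 0.00749 in vehicle acute and 0.235, 0.287 and 0.268 in vehicle chronic libraries. It had 0.0302, 0.844 and 0.301 RPKM in polyclonal acute, 0.0479, 0.467 and 0.0341 in polyclonal chronic, 0.812, 0.755 and 1.57 in OT-I acute and 4.26, 4.54 and 3.53 in OT-I chronic libraries. Only NAC and OT-I chronic libraries exceeded 2 RPKM. Chl1 rose in OT-I cells by 1.34 (SE 0.19, adjusted p = 3.94e-06) and not in polyclonal cells (-0.21, SE 0.19, adjusted p = 0.330).

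Eml1, a microtubule-binding protein, had 23.8 ± 0.534 RPKM with NAC, 5.11 ± 0.366 in vehicle chronic and 0.282 ± 0.0680 in vehicle acute libraries. Lima1 and Tmod1, which bind actin filaments, had only 3.11 and 6.34 RPKM with NAC but 35.1 and 16.9 in OT-I acute libraries. Those libraries had the highest melanocyte marker sum, and the part of melanoma cells in these levels was not tested. Sh3gl3, an endophilin, had close means in polyclonal chronic (8.39 RPKM) and NAC cells (8.07). Cldn10, a tight junction protein, measured 5.83, 7.29 and 6.11 RPKM with NAC and at most 0.905 in any other library. The other 7 were Tmie (12 RPKM with NAC), Ston1 (7.35), Cep85l (7.29), Myo1h (4.28), Ccdc141 (4.25), Whrn (4.03) and Cmya5 (3.39).

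Genes of the germline and of telomeres were 4, and all were highest with NAC. Oosp1 is known as an oocyte-secreted protein. Oosp1 measured 16.6, 16.6 and 16.4 RPKM with NAC, 0.204, 0.0779 and 0.0665 in vehicle acute and 0.575, 1.11 and 0.884 in vehicle chronic libraries. It had 0.0894, 2.78 and 0.668 RPKM in polyclonal acute, 3.08, 4.74 and 3.33 in polyclonal chronic, 0.427, 0.120 and 0.786 in OT-I acute and 0.924, 1.23 and 1.94 in OT-I chronic libraries. NAC libraries were close together and far above all others. Oosp1 rose in polyclonal cells by 1.29 (SE 0.29, adjusted p = 6.69e-04), and its OT-I change of 0.71 (SE 0.29, adjusted p = 0.0434) was lost without OT-I acute replicate 1 or 2 (adjusted p = 0.0793 and 0.163) or OT-I chronic replicate 2 or 3 (adjusted p = 0.0709 and 0.171). Spo11, which makes the DNA breaks of meiosis, had 22.3 ± 1.35 RPKM with NAC, 3.27 ± 0.466 in vehicle acute and 3.31 ± 0.578 in vehicle chronic libraries. Tert, the catalytic subunit of telomerase, had 3.25 ± 0.286, 0.475 ± 0.104 and 0.524 ± 0.131 RPKM in the same order, and Cntd1, a meiotic crossover factor, 3.11 ± 0.188, 0.674 ± 0.143 and 0.479 ± 0.0741.

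The other 20 genes had mixed or little-known roles, and 17 were highest with NAC. Mirt1, a noncoding transcript, was the highest in acute polyclonal cells after NAC. Mirt1 measured 19.7, 20.2 and 19.5 RPKM with NAC, 3.40, 4.32 and 4.49 in vehicle acute and 5.15, 4.93 and 4.58 in vehicle chronic libraries. It had 11.7, 15.6 and 11.6 RPKM in polyclonal acute, 5.63, 8.06 and 4.54 in polyclonal chronic, 5.12, 5.17 and 6.34 in OT-I acute and 3.02, 3.04 and 3.14 in OT-I chronic libraries. Chronic libraries were below acute ones in the polyclonal and OT-I experiments. Mirt1 fell in polyclonal (-1.0, SE 0.14, adjusted p = 1.94e-06) and in OT-I cells (-0.68, SE 0.14, adjusted p = 2.57e-04). Grtp1, a growth hormone regulated protein, came nearest to its NAC level in OT-I acute cells. Grtp1 measured 7.91, 8.26 and 9.61 RPKM with NAC, 0.771, 0.416 and 0.754 in vehicle acute and 1.48, 1.26 and 1.27 in vehicle chronic libraries. It had 1.37, 2.71 and 1.34 RPKM in polyclonal acute, 0.637, 0.986 and 0.706 in polyclonal chronic, 7.24, 7.82 and 6.57 in OT-I acute and 1.30, 0.938 and 1.10 in OT-I chronic libraries. Its OT-I acute libraries fell just below the NAC libraries. Grtp1 fell in OT-I cells (-1.96, SE 0.15, adjusted p = 9.29e-10) and in polyclonal cells (-0.63, SE 0.15, adjusted p = 9.75e-04), the latter neither in voom on recovered reads (adjusted p = 0.0575) nor in a fit of only the compared groups (adjusted p = 0.0510).

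NAC means of the remaining named genes were 29.9 RPKM for Prrt1, 13.6 for Igsf23, 9.52 for Tmem91, 9.05 for Ypel2, 7.65 for Fam124b, 7.36 for Klhdc8b and 4.89 for Dthd1. Lower levels were held by Krba1 (4.67), Ypel4 (4.47), Armcx1 (3.88), Tmem121 (3.68) and Mctp1 (3.59). The 6 clones and predicted genes were 4930431P03Rik (17.2), A930041C12Rik (6.35), 1700019D03Rik (4.98), 1810010H24Rik (3.92), Gm20743 (3.82) and Gm7694 (3.10). Gm20743 is listed at 0 in all 6 vehicle libraries and had 4.10, 3.36 and 4.01 RPKM with NAC.

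Position was a feature that the rule did not use. In RefSeq gene order 91 of the 96 genes could be placed. Pairs with at most 2 protein-coding genes between them were sought, and 6 were found, each with at most 1 between. No share over all genes is given for such pairs, so nothing is read from their number. The pairs were Cd81 and Tspan32, Hspa1a and Hspa1b, Ddc and Grb10, Krba1 and Zfp467, Ms4a4c and Ms4a6c, and Gng11 and Tfpi2. Between Ms4a4c and Ms4a6c lies Ms4a4b, a family member that is not among the 96. Ms4a4b measured 606, 605 and 603 RPKM with NAC, 611, 615 and 657 in vehicle acute and 170.1, 168 and 169 in vehicle chronic libraries. Its NAC libraries lay just below the vehicle acute ones, whereas those of both neighbours lay above them. Members of a pair did not always move alike. Cd81 had 103 and Tspan32 9.59 RPKM in OT-I acute libraries, and Zfp467 6.06 and Krba1 1.79.

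Promoters of 86 of the 96 genes were found in the RefSeq table (GRCm38.p6), and 10 motifs were searched on both strands in the 250 bases before the start. The antioxidant response element TGACNNNGC was found in 9.30% of these promoters and in 10.1% of all, the AP-1 site TGANTCA in 10.5% and 6.87%, and the RUNX site TGTGGT in 18.6% and 14.2%. The GATA site AGATAA was found in 10.5% and 10.3%, the gamma-activated site TTCNNNGAA in 4.65% and 7.18%, and the E-box CACGTG in 4.65% and 6.05%. The interferon-stimulated response element was found in 2.33% and 3.04%, and the TCF/LEF site CTTTGAT in 2.33% and 3.23%. Such a match describes letters in a window and no binding.

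Lists of better-known programmes describe the NAC libraries beside the 96 genes. Of the 96, those given in this paragraph hold only Ccr7, in the memory and homing list. Over all genes tested, 38.5% were higher and 22.6% lower with NAC against vehicle chronic, and 36.3% and 29.9% against vehicle acute. Of 19 memory and homing genes tested beside Ccr7, 16 were higher with NAC than in vehicle chronic libraries and 2 lower, and against vehicle acute 9 were higher and 9 lower. Tcf7, the factor of stem-like T cells, was 116 ± 2.58 RPKM with NAC and 3.5 ± 0.354 in vehicle chronic libraries, a log2 change of 4.70. In vehicle acute libraries Tcf7 was 176 ± 17.1, above the NAC level. Of 15 inhibitory receptors 3 were higher with NAC than in vehicle chronic libraries and 12 lower, whereas against vehicle acute 10 were higher and 3 lower, or 9 and 5 with libraries rescaled to the same median. Of 26 cytokine and cytotoxic genes 3 were higher and 21 lower against vehicle chronic, and 16 higher and 8 lower against vehicle acute.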

How the data were processed

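Poly(A)+ RNA from cultured mouse CD8 T cells was sequenced in 21 libraries, per the labels' protocols. The authors deposited 1 table of RPKM values for 13202 genes. Tools listed in the submitters' processing notes are HTSeq, edgeR and bcl2fastq 2.17, with the build mm9. For the aligner, strand setting and filter, nothing is given in the sources used here. RPKM divides by gene length and by the reads listed per library, so a few very abundant genes can lower all others.

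Whole reads were recovered for 100% of genes within 0.001 reads, which gave the depths and a voom alternative. Values were tested as log2(RPKM + 1), with a pseudocount of 1, for 12630 genes with 1 RPKM or more in at least 3 libraries. All 21 libraries entered 1 limma fit (limma 3.58.1, R 4.3.3) with a mean per group, an empirical Bayes trend and two-sided tests, and an adjusted p under 0.05 was called. The fit was tested on simulated data. A change on this scale understates that of low genes.

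The 96 genes, the 32 gene and marker lists and the tests were chosen with earlier results of these data known. Roles and the heat shock motif were assigned after values were seen. Of the 96 genes, 94 are named, and 2 that enter all counts are not reported here by themselves. Values in every library are given for the 12 with the highest NAC mean, the 10 with the largest (NAC + 1) to (higher vehicle + 1) ratio, and the 6 highest and 6 lowest called changes in polyclonal and in OT-I cells. They are also given for a few further genes chosen after their values were seen (Hspa1a, Hspa1b, Foxp3, Ntn1, Cldn10, Gm20743 and the neighbour Ms4a4b). The lists name up to 2 called genes each.

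Same-numbered polyclonal acute and chronic libraries deviated together (r = 0.446, 0.629 and 0.168 across genes). So did acute 1 with chronic 3 (0.569) and acute 3 with chronic 1 (0.134). Replicate 2 of either group, a library with raised low genes, went against other numbers of the other group (-0.630 to -0.188). Pairs by number are therefore not shown, and no label says what a number shares. The main fit is unpaired, with the replicate number as a block in an alternative. Same-numbered OT-I (0.052, -0.17 and -0.034) and vehicle and NAC libraries (-0.030 to 0.079) did not deviate together. Sequences are from RefSeq, GRCm38.p6, which is not the authors' build.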

Additional observations from a re-analysis of the deposited data

Results flagged for a closer look

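The effect of repeated stimulation differed between OT-I and polyclonal cells, by the test of the difference itself, for 56 of the 96 genes, where 55.8% of all genes tested passed. In 15 of them the 2 experiments gave called changes of opposite direction. That count is given without its share over all genes, and nothing is read from it. The OT-I minus polyclonal difference of these genes follows on the log2(RPKM + 1) scale. The lowest differences were -3.76 for Phyhd1, -3.12 for Ephx1, -2.53 for Ncf1 and -2.40 for Eno2. Rgs10 had -1.89, P2rx4 -1.77 and Tspan32 -1.63. Zfp467 had -1.36, Sox4 -1.35, Armcx1 -1.32, Eml1 -1.30, As3mt -1.24 and Krba1 -1.14. Gng11 and Myb went the other way, with 1.16 and 1.13, and that of Gng11 was not called in voom on recovered reads (adjusted p = 0.0602). OT-I libraries were cultured with melanoma cells and had a melanocyte marker sum of 8211 to 8526 RPKM in acute and 4789 to 4916 in chronic libraries, and its part in these differences was not tested. With 3 libraries a group, no test of an outlying value within a group was run.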

How the results depend on the processing

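The number of genes chosen moved with the thresholds: 147 with a minimum mean of 1 RPKM, 62 with 5, 163 with a ratio of 3, 55 with a ratio of 6 and 48 with the ratio of (mean + 1). Leaving out a vehicle or NAC library gave 95 to 100 genes, of which 93 to 96 were shared with the 96. Requiring the lowest NAC library to be 4 times the highest vehicle library left 81, and rescaling libraries to the same median 78. That rescaling turned the counts over all genes to 3380 higher and 4114 lower for NAC against vehicle chronic, and to 3610 and 4802 against vehicle acute. With a change of at least 2-fold also required, polyclonal cells kept a count of 23 higher and 6 lower genes, OT-I cells 6 and 6, and the OT-I minus polyclonal difference 8 higher and 31 lower. Over all genes tested that requirement gave 741 higher and 432 lower for NAC against vehicle chronic, 1060 and 592 for NAC against vehicle acute, and 745 and 595 for vehicle chronic against acute. A fit of only the compared groups gave 31 higher and 14 lower in polyclonal cells and 13 and 42 in OT-I cells. Its differences were higher for 8 and lower for 36. Leaving out single libraries, OT-I minus polyclonal differences were higher for 11 to 16 and lower for 39 to 58. It gave 33 to 48 higher and 15 to 24 lower in polyclonal cells, and 8 to 11 higher and 31 to 38 lower in OT-I cells. Without the 3 libraries with raised low genes, an alternative added after seeing the data, the counts were 46 and 23 in polyclonal and 15 and 44 in OT-I cells. For the polyclonal and OT-I counts in this section no all-gene share under the same setting is given, so nothing is read from them. No alternative run reversed a called change among the genes followed individually. Changes that were not called did change sign in places, among them the OT-I changes of Ccr7 (-0.030) and Itm2a (-0.072) without OT-I acute replicate 3 and the polyclonal change of Chl1 (0.012) without polyclonal acute replicate 2.

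With the replicate number as a block the counts were 42 higher and 22 lower in polyclonal cells and 12 and 47 in OT-I cells, with 16 higher and 49 lower differences. Over all genes tested the block gave 5037 higher and 2969 lower for NAC against vehicle chronic, 4778 and 3878 for NAC against vehicle acute, and 3269 and 4476 for vehicle chronic against acute. Among the genes followed individually, the block brought Tifa past the threshold in polyclonal cells (adjusted p = 0.0142) and Art2b (0.0220) and Mirt1 (0.0408) in the difference. Depth limits Vpreb3, A930041C12Rik and Ypel4 most, which had fewer than 50 reads in a NAC library. Read sharing between near-identical genes and any effect of the culture experiment were not tested.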

Other observations

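Trpm1, which encodes a cation channel of melanocytes and retina, missed the level threshold and had the most extreme ratio of its neighbours there. Its mean was 2.91 RPKM with NAC, 0.00567 in vehicle acute and 0.0178 in vehicle chronic libraries. The melanocyte genes Tyrp1, Dct, Tyr, Slc45a2, Sox10 and Oca2 were at 0 in the NAC libraries, and Trpm1 was 30.9 RPKM in OT-I acute libraries. Pmel was 3.24 RPKM with NAC, 1.03 in vehicle chronic and 3.72 in vehicle acute libraries, and Gpnmb 1.24, 0.538 and 6.63. Of the 12 melanocyte markers, Trpm1 among them, 3 were higher and 0 lower with NAC than in vehicle chronic libraries. Over all genes those shares were 38.5% and 22.6%. Against vehicle acute 1 was higher and 1 lower, where 36.3% and 29.9% of all genes were.

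Markers of mast cells and basophils did not share a direction. Cpa3 and Kit were higher with NAC than in both vehicle groups, at 42.1 ± 4.54 and 29.1 ± 0.654 RPKM (SD, n = 3). Ms4a2 was also higher, at 1.17 RPKM with NAC, 0.00703 in vehicle chronic and 0.00688 in vehicle acute libraries. Mcpt8 was 0.0275 ± 0.0477 with NAC, 10.5 ± 1.12 in vehicle chronic and 1.75 ± 0.213 in vehicle acute libraries. Of the 4 markers, 3 were thus higher and 1 lower with NAC than in each vehicle group, and Cpa3 was chosen by the rule.

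Metallothioneins, which bind zinc and other metals, lay below both vehicle states, the opposite of the 96 genes. Mt2 was 3.53 ± 0.927 RPKM with NAC against 209.6 ± 10.8 in vehicle chronic and 201 ± 15.7 in vehicle acute libraries. Mt1 was 16.4 ± 0.707 against 323 ± 16.4 and 330.4 ± 30.4. Of 11 genes of a metallothionein and zinc list tested, 10 were lower with NAC than in vehicle chronic libraries and 1 higher, where 22.6% and 38.5% of all genes were. With libraries rescaled to the same median the list counts were again 10 and 1, and the shares of all genes were 32.6% and 26.8%.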
